A study of Mus musculus with 21 samples.

Results

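The response to ionising radiation was examined in the CD24hi fraction of tdTomato-positive, Mist1+ cells of the mouse small intestine. The comparison used the 2 arrays of CD24hi cells labelled as irradiated with 10 Gy and the 2 arrays of untreated CD24hi cells, which are 4 of the 21 arrays in the series. The series sorted Mist1+ cells by the surface protein CD24 into CD24hi and CD24lo fractions under 5 conditions, with 2 arrays in each of 10 sorted groups, and added 1 array of whole intestine. The other conditions were Lgr5 ablation, Notch intracellular domain (NICD) expression and doxorubicin, a DNA-damaging drug. All groups share the tdTomato and Mist1+ sort. Strain, age, the tdTomato and Cre alleles, the time after irradiation and the doxorubicin dose and time are not given in the sources used here. The labels do not say whether replicate arrays came from separate mice, so the p-values measure only the spread between these samples, and 2 arrays a group limit the precision.

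Mist1, the product of Bhlha15, is a transcription factor of secretory cells with a large endoplasmic reticulum, and CD24 is carried at high levels by Paneth cells and other crypt secretory cells. Radiation breaks DNA, and the broken ends activate the kinases ATM and ATR and then the transcription factor p53. p53 raises genes that stop the cell cycle, limit p53 itself or start cell death. Cycling cells of the crypt, stem cells among them, are the intestinal cells best known for their sensitivity to radiation, while cells with little division can survive and re-enter the cycle. In these bulk samples, fewer cells of a type and less RNA per cell cannot be told apart.

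Levels are given as log2(signal + 16), where signal is the deposited linear probe set value, so that a difference of 1 is a doubling well above the added 16 and understates the change of dim genes. Differences are irradiated minus untreated means with the standard error (SE) of limma's fit, and p-values are limma's, adjusted by the Benjamini-Hochberg method over 11854 genes and called at 0.05. The sort genes were present in both groups. Cd24a read 14.17 and 14.40 in the untreated CD24hi arrays, 14.26 and 14.22 in the irradiated ones and 13.12 and 13.17 in untreated CD24lo cells. Bhlha15 read 11.09 and 11.46 in untreated and 12.21 and 11.34 in irradiated CD24hi cells, against 9.17 and 9.18 in untreated CD24lo cells. Paneth cell RNA was abundant in both groups: the summed signal of 22 Paneth cell markers was 183259 and 227080 in untreated and 182926 and 191919 in irradiated CD24hi cells. Median signal was 143 and 129 in the untreated arrays and 143 and 136 in the irradiated ones. The ratio of the 3' to the 5' actin control probe sets, a sign of RNA quality, was 1.49 and 1.58 in untreated and 1.46 and 1.44 in irradiated cells. One array elsewhere in the series, CD24hi NICD replicate 2, stood apart in its spike-in control.

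Irradiation changed 526 of 11854 genes in CD24hi cells (4.44%). 131 genes were higher (1.11%) and 395 were lower (3.33%), and the median difference over all genes was 0.0023. The called differences had a median size of 1.34 among the higher and 1.36 among the lower genes. Of 27 p53 targets of arrest and feedback 11 rose. Lower were 25 of 36 genes of DNA replication, 31 of 36 genes of mitosis and 5 of 6 genes of MHC class II. Of 22 crypt base genes 5 fell, among them Olfm4, Aqp4 and Ascl2, while Lgr5, Smoc2 and Sox9 did not pass. The count of calls depended on single arrays: it was 163 without irradiated replicate 1, 242 without untreated replicate 1, 323 without untreated replicate 2 and 530 without irradiated replicate 2.

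**Figure D1:**
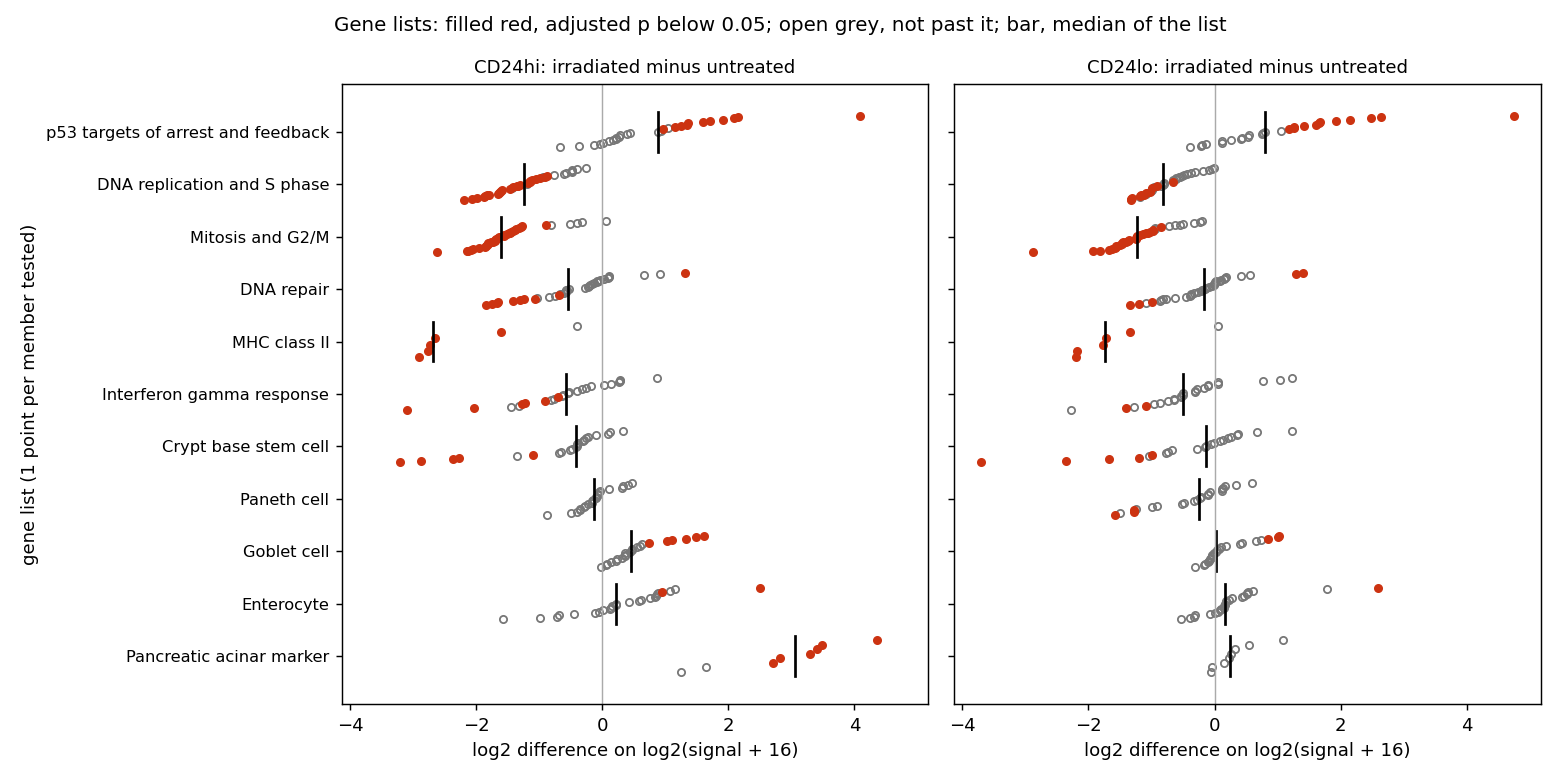
Differences (irradiated minus untreated, on the log2(signal + 16) scale, x axis) of every tested member of 11 gene lists (y axis), in CD24hi cells on the left and CD24lo cells on the right; filled red points passed an adjusted p of 0.05, open grey points did not, and bars are list medians. In CD24hi cells the medians are 0.88 for p53 targets, -1.25 for S phase, -1.61 for mitosis, -2.69 for MHC class II, and 3.06 for the acinar list.

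Among 27 tested p53 targets of arrest and feedback, 11 rose and 0 fell, and the list's median difference was 0.88. Cdkn1a, which encodes the cyclin-dependent kinase inhibitor p21, read 11.53 and 11.31 in untreated and 13.34 and 13.68 in irradiated arrays. It rose by 2.09 (SE 0.29; adjusted p = 0.000373), and the groups did not overlap. Phlda3, an inhibitor of AKT signalling, read 7.07 and 5.66 in untreated and 10.28 and 10.64 in irradiated arrays. Its rise of 4.10 (SE 0.44; adjusted p = 4.41e-05) was the second largest of all 11854 genes among those whose groups did not overlap. Ccng1, which encodes cyclin G1, read 12.91 and 12.30 before and 13.81 and 13.89 after irradiation and rose by 1.25 (SE 0.21; adjusted p = 0.00211). Sesn2, a stress-induced regulator of mTORC1, read 9.17 and 8.83 in untreated and 10.80 and 10.64 in irradiated arrays, a rise of 1.71 (SE 0.20; adjusted p = 6.18e-05). These 4 genes were high in both irradiated arrays. Plk2 (2.15), Psrc1 (1.92), Zmat3 (1.60), Aen (1.36), Ptp4a3 (1.34), Mdm4 (1.15) and Cdc42bpg (0.97) were the other 7 that rose. Psrc1 did not pass without untreated replicate 2 (adjusted p = 0.0761) or without irradiated replicate 2 (adjusted p = 0.0627), and the list held 8 to 10 calls when any one of the 4 arrays was left out.

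Mdm2, the ubiquitin ligase that degrades p53, depended on the probe set. The brightest of its 3 probe sets read 10.70 and 10.95 in untreated and 11.40 and 12.003 in irradiated arrays, a difference of 0.88 (SE 0.30; adjusted p = 0.123). Its other 2 probe sets differed by 1.38 (adjusted p = 0.000599) and 1.08 (adjusted p = 0.0115). Trp53inp1, a p53-induced nuclear protein, read 13.07 and 12.36 against 13.77 and 13.51, a difference of 0.93 that did not pass (adjusted p = 0.155). Sesn1, Btg2, Plk3, Ppm1d and Ccnd1 differed by -0.14 to 0.17 and were not called.

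**Figure D2:**
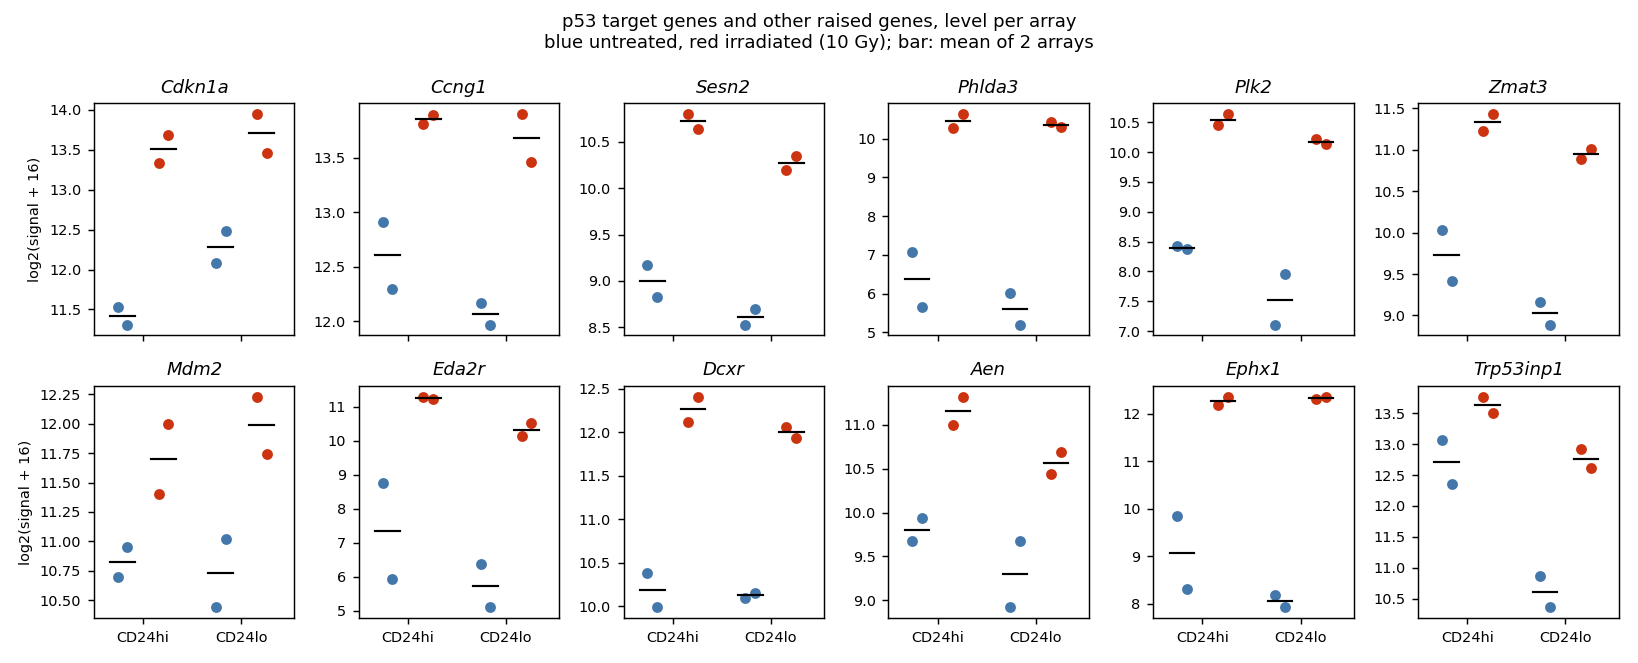
Level of 12 genes in each array (y axis, log2(signal + 16), scaled per panel) for CD24hi and CD24lo cells (x axis); blue points are untreated, red points irradiated and bars the mean of 2 arrays. In CD24hi cells the irradiated arrays lie above the untreated ones in every panel, while Mdm2 and Trp53inp1 did not pass the test for the probe set shown.

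Of 20 tested p53 targets of cell death and survival, 3 rose and 0 fell. Eda2r, the ectodysplasin A2 receptor of the TNF receptor family, read 8.77 and 5.94 in untreated and 11.30 and 11.23 in irradiated arrays, a rise of 3.91 (SE 0.62; adjusted p = 0.00115). Its untreated arrays lay far apart from each other and below both irradiated ones. Dcxr, a carbonyl reductase, rose by 2.08 (SE 0.24; adjusted p = 6.18e-05), from 10.39 and 9.99 to 12.12 and 12.41. The nuclease gene Aen, a member of both lists, was the third. The pro-apoptotic BH3-only genes Pmaip1 (NOXA) and Bbc3 (PUMA) differed by 1.22 (adjusted p = 0.14) and 1.08 (adjusted p = 0.209), and the death receptor gene Fas by 0.83 (adjusted p = 0.295). In the list of 24 BCL2 family and caspase genes, 0 rose and Birc5 alone fell by 1.81 (adjusted p = 0.00241). Birc5 encodes survivin, which is also a mitotic protein, and it did not pass without irradiated replicate 1 (adjusted p = 0.0754).

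RefSeq promoter windows of build GRCm38.p6, which run from 250 bases before to 50 bases after a gene's start, were searched for the 20-base p53 consensus with at most 2 mismatches, keeping its core C and G letters and allowing no spacer. A match was found in 3 of the 101 higher genes with a window (3.0%), in 3 of 317 lower genes (0.9%) and in 0.5% of the 9624 tested genes with a window. Over all 32851 windows the share was 0.3%. One of the 3 higher genes, Zfp365, passed the filter on low values through irradiated or doxorubicin arrays alone, so the share among higher genes is a description. The 3 higher genes are shown because they are the members whose start carries these letters. The match has 1 mismatch in Cdkn1a and in Ccng1 and 2 mismatches in Zfp365, a gene that rose by 3.13. Stretches of 70 bases follow, with the match in capitals. They lie at chr10:67912681-67912750 (minus strand) for Zfp365, chr17:29090903-29090972 (plus strand) for Cdkn1a, before the start of one of its 2 windows, and chr11:40755437-40755506 (minus strand) for Ccng1. The match begins 63, 51 and 195 bases before the start in Zfp365, Cdkn1a and Ccng1.
Zfp365: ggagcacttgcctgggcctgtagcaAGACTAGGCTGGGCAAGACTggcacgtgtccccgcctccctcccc
Cdkn1a: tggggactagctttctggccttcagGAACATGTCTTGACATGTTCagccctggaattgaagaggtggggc
Ccng1: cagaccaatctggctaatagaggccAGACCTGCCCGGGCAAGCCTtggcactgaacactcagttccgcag

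Genes that copy DNA and carry out mitosis made up the largest lowered groups. Of 36 tested genes of DNA replication and S phase, 25 fell and 0 rose, with a median difference of -1.25, and of 36 genes of mitosis and G2/M, 31 fell and 0 rose, with a median of -1.61. Mki67, the marker of proliferating cells, read 11.57 and 11.78 in untreated and 9.06 and 10.17 in irradiated arrays. It fell by 2.06 (SE 0.31; adjusted p = 0.000761). Top2a, the topoisomerase that untangles chromosomes, read 11.54 and 11.64 in untreated and 9.05 and 9.87 in irradiated arrays and fell by 2.13 (SE 0.27; adjusted p = 0.000175). Irradiated replicate 1 was the lower of the 2 irradiated arrays for both genes, and neither array overlapped the untreated ones. Foxm1, a transcription factor of G2/M genes, read 9.63 and 9.37 against 6.31 and 7.45 and fell by 2.62 (SE 0.39; adjusted p = 0.000752). The kinase gene Pbk fell by 2.15 and Hmmr, which encodes a spindle-associated protein, by 2.08. Other probe sets of Foxm1 (-0.06 and -0.70), 3 of the 4 other ones of Hmmr (-0.14, -0.71 and -0.75) and the other one of Top2a (-0.52) were not called.

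Mcm6, a subunit of the replicative helicase, read 11.28 and 11.29 in untreated and 9.01 and 9.82 in irradiated arrays and fell by 1.87 (SE 0.25; adjusted p = 0.000273). Pole, the catalytic subunit of DNA polymerase epsilon, read 9.20 and 9.60 against 6.95 and 7.45 and fell by 2.20 (SE 0.32; adjusted p = 0.000548). The irradiated arrays of both genes lay below the untreated ones. E2f8, a repressor of the E2F family, fell by 1.99 (adjusted p = 0.000176), the polymerase alpha gene Pola1 by 1.86 (adjusted p = 0.00541) and Uhrf1, which maintains DNA methylation, by 2.07 (adjusted p = 0.0218). Without irradiated replicate 1, 7 S phase and 18 mitosis genes passed, and Pola1 (adjusted p = 0.119) and Uhrf1 (adjusted p = 0.303) did not. S phase calls were 12 without untreated replicate 1 and 15 without untreated replicate 2, while the medians of both lists stayed at or below -1.06 with any of the 4 arrays left out. Among 6 cyclin-dependent kinase inhibitors, Cdkn1a was higher and Cdkn2c, which encodes p18, fell by 1.39 (adjusted p = 0.0183); the latter did not pass without irradiated replicate 1 (adjusted p = 0.326) or untreated replicate 1 (adjusted p = 0.188).

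Promoter windows of the lowered cell cycle genes were searched on both strands for the cell cycle genes homology region (CHR, TTTGAA), which is known from G2/M genes, the CCAAT box (CCAAT), and an E2F motif (TTTNNCGC), known from S phase genes. CHR letters were in 20 of the 25 called mitosis genes with a window, in 2 of 20 called S phase genes and in 14.4% of tested genes. E2F letters were in 2 of 25 mitosis genes, 10 of 20 S phase genes and 9.6% of tested genes, and CCAAT letters in 21 of 25, 14 of 20 and 42.7%. Over all 32851 windows the shares were 17.9% for CHR, 5.2% for E2F and 37.4% for CCAAT. The 4 called mitosis genes with the largest fall that have CHR letters within the stretch from 120 bases before to 30 bases after the start are shown, with CHR and CCAAT letters (TTTGAA or TTCAAA, and CCAAT or ATTGG) in capitals. Top2a lies at chr11:99024160-99024309 (minus strand), Hmmr at chr11:40733408-40733557 (minus strand), Mki67 at chr7:135716350-135716499 (minus strand) and Cdca8, a subunit of the chromosomal passenger complex that fell by 1.82, at chr4:124936888-124937037 (minus strand). The Top2a, Hmmr and Cdca8 stretches hold 1 CHR match each beside 3, 3 and 4 CCAAT matches, the last of which in Cdca8 overlaps the CHR letters, and the Mki67 stretch holds 2 CHR matches and 0 CCAAT matches.
Top2a: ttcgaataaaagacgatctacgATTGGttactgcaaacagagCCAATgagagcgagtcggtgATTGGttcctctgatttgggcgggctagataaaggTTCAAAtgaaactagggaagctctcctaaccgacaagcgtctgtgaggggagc
Hmmr: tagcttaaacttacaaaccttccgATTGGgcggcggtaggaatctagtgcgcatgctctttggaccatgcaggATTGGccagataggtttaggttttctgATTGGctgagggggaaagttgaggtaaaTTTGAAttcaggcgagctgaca
Mki67: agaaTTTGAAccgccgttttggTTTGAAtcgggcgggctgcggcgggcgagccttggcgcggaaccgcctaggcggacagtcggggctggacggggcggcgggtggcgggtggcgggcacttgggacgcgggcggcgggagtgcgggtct
Cdca8: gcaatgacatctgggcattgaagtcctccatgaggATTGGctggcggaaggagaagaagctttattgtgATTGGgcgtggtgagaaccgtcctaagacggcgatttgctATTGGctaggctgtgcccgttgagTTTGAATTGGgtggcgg
The 3 called S phase genes with the largest fall and E2F letters in the same stretch are Uhrf1 at chr17:56303217-56303366 (plus strand), Mcm6 at chr1:128359676-128359825 (minus strand) and Mcm7, another helicase subunit, at chr5:138171854-138172003 (minus strand). E2F letters on either strand are in capitals, and the first 2 of the 3 matches in Mcm6 overlap.
Uhrf1: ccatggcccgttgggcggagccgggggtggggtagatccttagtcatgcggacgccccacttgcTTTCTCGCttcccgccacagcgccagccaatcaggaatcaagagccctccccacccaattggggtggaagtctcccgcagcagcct
Mcm6: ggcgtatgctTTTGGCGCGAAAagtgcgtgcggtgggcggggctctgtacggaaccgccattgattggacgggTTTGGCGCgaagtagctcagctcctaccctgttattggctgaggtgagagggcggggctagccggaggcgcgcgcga
Mcm7: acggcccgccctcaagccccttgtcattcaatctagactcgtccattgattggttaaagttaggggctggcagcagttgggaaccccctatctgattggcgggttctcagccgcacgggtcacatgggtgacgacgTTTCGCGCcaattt

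Of 36 repair genes 9 fell and 1 rose, with a median of -0.54, and of 22 genes of damage sensing and checkpoints 5 fell and 0 rose. Rad54b and Brca2, which act in homologous recombination, fell by 1.85 (adjusted p = 0.00254) and 1.43 (adjusted p = 0.00732). The exonuclease gene Exo1 fell by 1.68 and the Fanconi anaemia gene Fancb by 1.66. Polk, a polymerase that copies past damaged bases, read 9.32 and 8.82 in untreated and 10.42 and 10.34 in irradiated arrays and rose by 1.31 (SE 0.20; adjusted p = 0.000902). Clspn, Timeless and Tipin, which hold the ATR pathway to the replication fork, fell by 1.98, 1.75 and 1.12, H2ax by 1.93 and the kinase gene Atr by 1.01. Other probe sets of Atr (-0.30), Clspn (-0.78) and Timeless (-1.41) were not called. Without irradiated replicate 1, 1 repair gene fell, and Brca2 (adjusted p = 0.157), Exo1 (0.153), Fancb (0.0657), Timeless (0.207), Tipin (0.457), H2ax (0.0546) and Atr (0.0816) were not called. Without untreated replicate 2, 5 repair genes fell, and Brca2 (adjusted p = 0.0889), Exo1 (0.0622), Timeless (0.114) and Tipin (0.114) were not called, and Tipin was also lost without untreated replicate 1 (0.197).

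RNA of MHC class II genes, which serve antigen presentation, had the most negative list median, -2.69, with 5 of 6 tested members lower. H2-Eb1, a beta chain of the class II molecule, read 11.22 and 10.86 in untreated and 8.37 and 8.25 in irradiated arrays and fell by 2.73 (SE 0.23; adjusted p = 5.23e-06). H2-Aa, an alpha chain, read 10.64 and 10.42 against 8.20 and 7.04 and fell by 2.91 (SE 0.34; adjusted p = 6.74e-05). Cd74, the invariant chain that guides class II molecules to the endosome, read 10.92 and 11.11 against 8.44 and 8.29 and fell by 2.65 (SE 0.30; adjusted p = 6.18e-05). No irradiated array reached an untreated one for these 3 genes. The peptide editor gene H2-DMa fell by 2.77 and H2-Ab1 by 1.61, and all 5 kept the call with any of the 4 arrays left out. Ciita, the coactivator that drives class II genes, read 7.61 and 7.34 in untreated and 6.90 and 7.25 in irradiated arrays, a difference of -0.40 that did not pass (adjusted p = 0.627; 95% interval -1.10 to 0.31). These levels lay near the array medians, 7.32 and 7.18 in untreated and 7.31 and 7.25 in irradiated arrays. A fall of up to 1.10 lies within the 95% interval, so Ciita was not shown to be unchanged.

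B and plasma cells also carry class II genes, and the summed signal of 12 B and plasma cell markers was 3954 and 4688 in untreated and 1408 and 971 in irradiated CD24hi arrays. 3 and 3 of these markers lay above the array median in untreated and 3 and 2 in irradiated cells, and Cd79a and Cd79b lay below it in all 4 arrays. Of 7 tested members 6 had negative differences and 1 a positive one, with a median of -1.58. Ighm read 9.50 and 9.93 in untreated and 8.05 and 8.18 in irradiated arrays, and Iglv1 8.60 and 8.39 against 7.70 and 6.56. Neither was called. Ms4a1, which encodes CD20, fell by 1.58 (adjusted p = 0.0499), with levels below the array median in all 4, and lost the call without untreated replicate 1 (0.309), untreated replicate 2 (0.0847) or irradiated replicate 2 (0.335). The plasma cell gene Jchain read 11.22 and 11.54 against 9.57 and 8.73 and did not pass (adjusted p = 0.06995). In CD24lo cells the same sum was 3560 and 5677 in untreated and 1937 and 1305 in irradiated arrays. Myeloid markers summed to 8296 and 6197 in untreated and 10312 and 9295 in irradiated cells, and 2 of 21 lay above the median in each array. These were Lyz2, which made up most of the sum, and Cd68. Lyz2 read 12.75 and 12.25 in untreated and 13.17 and 12.98 in irradiated arrays. Cd68 read 9.53 and 9.93 against 8.77 and 9.21, so the sum mainly describes Lyz2. The part of B and plasma cell RNA in the class II difference was not tested.

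Class II promoters carry a Y box, the inverted CCAAT element CTGATTGG, bound by the factor NF-Y. The letters were in 2 of the 3 called class II genes with a window, in 6.5% of tested genes and in 4.1% of all windows, and they contain a CCAAT box on the other strand. Both stretches run from 130 bases before to 20 bases after the start, at chr17:34287804-34287953 (minus strand) for H2-Aa and chr17:34305737-34305886 (plus strand) for H2-Eb1, with the Y box in capitals, and the box begins 51 and 62 bases before the start.
H2-Aa: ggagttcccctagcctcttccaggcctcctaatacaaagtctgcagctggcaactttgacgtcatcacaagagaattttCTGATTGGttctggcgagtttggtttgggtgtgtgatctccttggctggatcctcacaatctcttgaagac
H2-Eb1: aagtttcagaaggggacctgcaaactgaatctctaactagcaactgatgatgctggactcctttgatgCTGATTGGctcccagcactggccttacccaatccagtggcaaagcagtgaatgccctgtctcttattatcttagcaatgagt

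Of 24 interferon gamma response genes 6 fell and 0 rose, with a median of -0.58, and 6 had positive differences that did not pass. Psmb9, an immunoproteasome subunit, read 11.05 and 10.90 in untreated and 8.71 and 9.19 in irradiated arrays and fell by 2.03 (SE 0.20; adjusted p = 1.48e-05). The immunoproteasome genes Psmb8 and Psmb10 fell by 1.27 and 0.91, the immunity-related GTPase genes Iigp1 and Igtp by 3.11 and 1.22, and the transcription factor gene Irf1 by 0.71. Without any one of the 4 arrays, 3 or 4 genes of the list passed. Among the 5 with the largest fall, Iigp1 missed each time (adjusted p from 0.0563 to 0.0704), Psmb10 without irradiated replicate 1 (0.0691), and Igtp without irradiated replicate 2 (0.135) or untreated replicate 1 (0.204). Of 27 antiviral interferon-induced genes, Ifit3 and Irf7 fell by 1.97 and 1.11, and each lost the call in all 4 such fits (adjusted p from 0.0636 to 0.24). Ccl28, a chemokine that draws IgA-producing cells to mucosa, read 10.77 and 10.66 against 8.68 and 8.90 and fell by 1.93 (SE 0.17; adjusted p = 1.3e-05). It was the one lowered member of 17 inflammatory genes, and Tnfsf10, the death ligand TRAIL, fell by 3.14 (adjusted p = 0.000548).

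**Figure D3:**
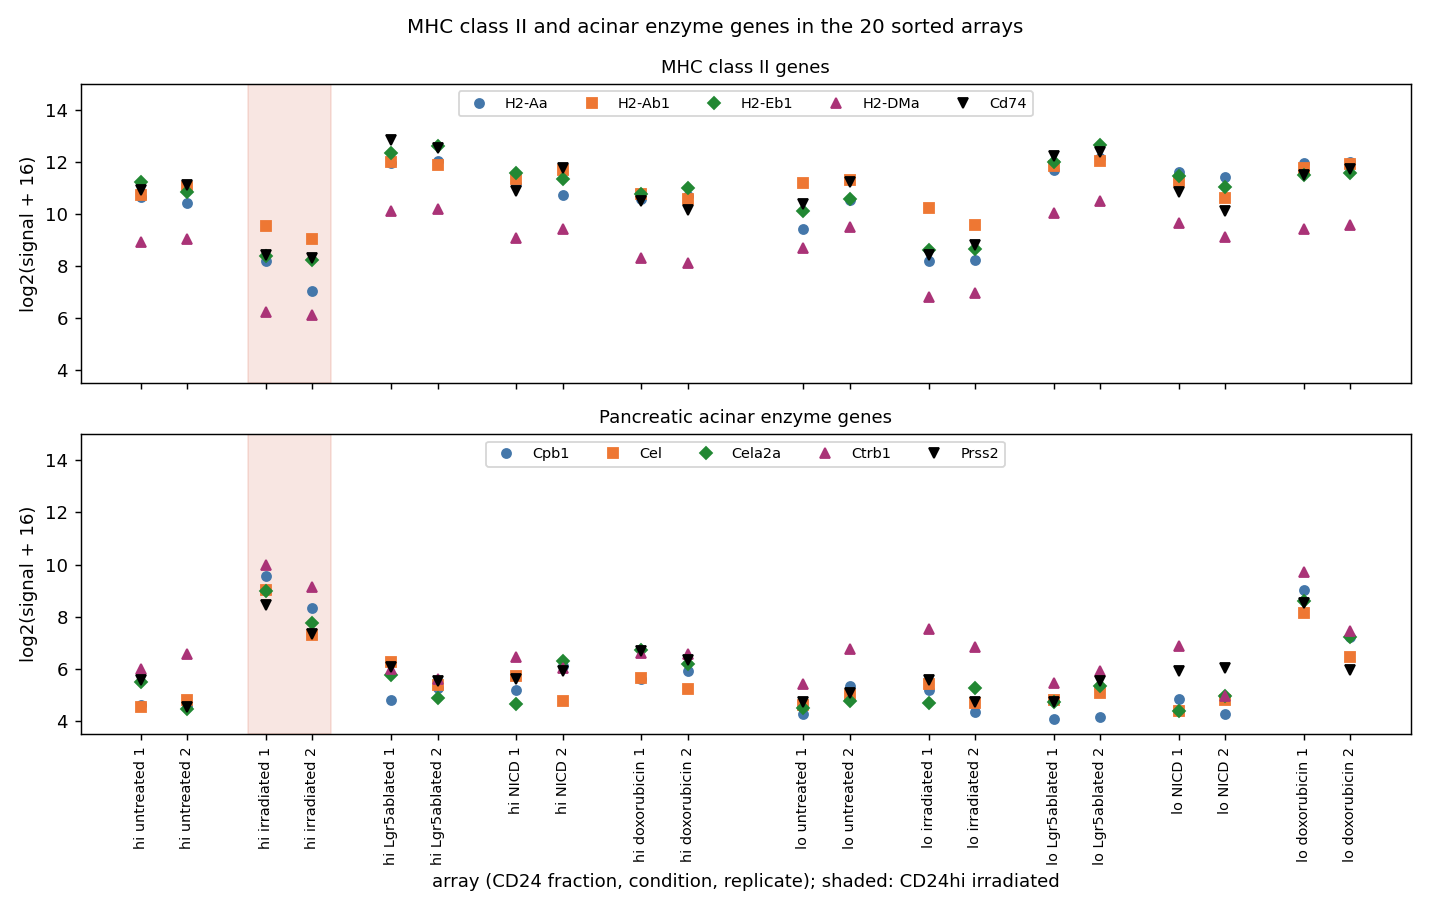
Level (y axis, log2(signal + 16)) of 5 MHC class II genes (top) and 5 pancreatic acinar enzyme genes (bottom) in each of the 20 sorted arrays (x axis); the shaded pair is irradiated CD24hi. Cd74 reads 8.44 and 8.29 there against 10.92 and 11.11 in untreated CD24hi cells, and Cpb1 reads 9.56 and 8.35 against 4.63 and 4.56, with CD24lo doxorubicin arrays at 9.02 and 7.23.

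Some crypt base stem cell genes fell steeply and others did not pass the test. Of 22 tested, 5 fell and 0 rose, with a median of -0.42. Olfm4, a secreted glycoprotein of crypt base columnar cells and a Notch-responsive gene, read 14.32 and 14.30 in untreated and 10.64 and 11.57 in irradiated arrays and fell by 3.20 (SE 0.30; adjusted p = 1.48e-05). Aqp4, a water channel of crypt base cells, read 11.86 and 11.40 against 8.35 and 9.15 and fell by 2.88 (SE 0.27; adjusted p = 1.32e-05). Ascl2, the stem cell transcription factor downstream of Wnt, read 9.90 and 9.16 against 6.69 and 7.81 and fell by 2.28 (SE 0.49; adjusted p = 0.0102). The vitamin D receptor gene Vdr fell by 2.37 and the Wnt feedback gene Axin2 by 1.10. Lgr5, the stem cell receptor for R-spondin, read 11.48 and 10.95 in untreated and 10.96 and 10.52 in irradiated arrays, groups that overlap at their edge. Its difference of -0.47 did not pass (adjusted p = 0.758; 95% interval -1.67 to 0.72). Smoc2 (-0.52) and Sox9 (0.32) also did not pass. The list held 3 calls without irradiated replicate 1 and 3 without untreated replicate 1, and Ascl2 and Axin2 lost theirs without irradiated replicate 1 (adjusted p = 0.228 and 0.149) or untreated replicate 1 (0.151 and 0.12). Of 9 tested reserve stem cell genes 0 were called in either direction, which lies near the 4.44% called over all genes.

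In the Notch pathway, 4 of 22 genes fell and 0 rose, against 3.33% of all genes called lower. The list as a whole was not lower: its median was 0.14, with 15 differences positive and 7 negative. The 4 were Olfm4, also a member of the crypt base list, and the receptor genes Notch2 (-1.96; adjusted p = 0.00102) and Notch1 (-1.50; adjusted p = 0.0065), with the feedback inhibitor Nrarp (-1.22; adjusted p = 0.0201). Notch1 and Nrarp lost the call without irradiated replicate 1 (adjusted p = 0.178 and 0.241) or untreated replicate 1 (0.0829 and 0.112), Nrarp also without untreated replicate 2 (0.12), and other probe sets of Notch1 (-0.87) and Notch2 (-0.61) were not called. Hes1, the classic Notch target, differed by 0.06 (95% interval -0.65 to 0.78; adjusted p = 0.96).

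Goblet cells make and secrete mucus. Of 22 tested goblet cell genes 6 rose and 0 fell, with a median of 0.45. Clca1, a secreted protease of the mucus layer, read 11.96 and 11.88 in untreated and 13.32 and 13.75 in irradiated arrays and rose by 1.61 (SE 0.18; adjusted p = 5.25e-05). Zg16, a lectin of mucus that binds bacteria, read 13.12 and 12.65 against 13.86 and 14.12 and rose by 1.10 (SE 0.21; adjusted p = 0.00448). Both irradiated arrays lay above both untreated arrays for these genes. Bcas1 rose by 1.48, Fer1l6 by 1.33, the calpain gene Capn9 by 1.03 and Sytl2, a vesicle-docking protein gene, by 0.74. Without untreated replicate 1 and without untreated replicate 2, 4 of the 6 passed. Capn9 missed without untreated replicate 1 (adjusted p = 0.0844), Zg16 missed without untreated replicate 2 (0.0803), and one of Zg16's other probe sets (0.38) was not called. Muc2, the main mucin, read 14.03 and 14.49 against 14.28 and 14.40 and did not pass (0.08; adjusted p = 0.93).

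Paneth cell genes showed 0 calls of 22, with a median of -0.13, and Lyz1, which encodes lysozyme, read 14.26 and 14.76 in untreated and 14.13 and 14.33 in irradiated arrays (adjusted p = 0.697). Tuft cell (17 tested), enteroendocrine (21), secretory transcription factor (25) and Reg family genes (6) had 0 calls as well. Of all 11854 genes 4.44% were called, so 0 calls in lists this short lies near that share. It does not show that these genes were unchanged. Chga (-0.48), Dclk1 (-0.60), Atoh1 (0.60), Reg3b (-0.44), Lct (0.86), Clu (0.12) and Ido1 (-0.19) did not pass. Of 25 enterocyte genes, Cyp3a11, a drug-metabolising cytochrome, rose by 2.51 (adjusted p = 0.00285) and Krt20, a keratin of mature epithelium, by 0.94 (adjusted p = 0.0124); Krt20 missed without untreated replicate 2 (0.13) or irradiated replicate 2 (0.147). Btc, the EGF family ligand betacellulin, was the one raised member of 14 niche ligands, from 8.36 and 8.005 to 9.45 and 9.61 (difference 1.34; SE 0.18; adjusted p = 0.000373). Of 23 genes of epithelial repair, Anxa3 rose by 1.82 (adjusted p = 0.000832) and Plaur, the urokinase receptor, by 1.49 (0.0132), while Gkn3 fell by 2.15 (0.0149). Plaur and Gkn3 each missed without irradiated replicate 1, irradiated replicate 2 or untreated replicate 1 (adjusted p from 0.071 to 0.252).

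**Figure D4:**
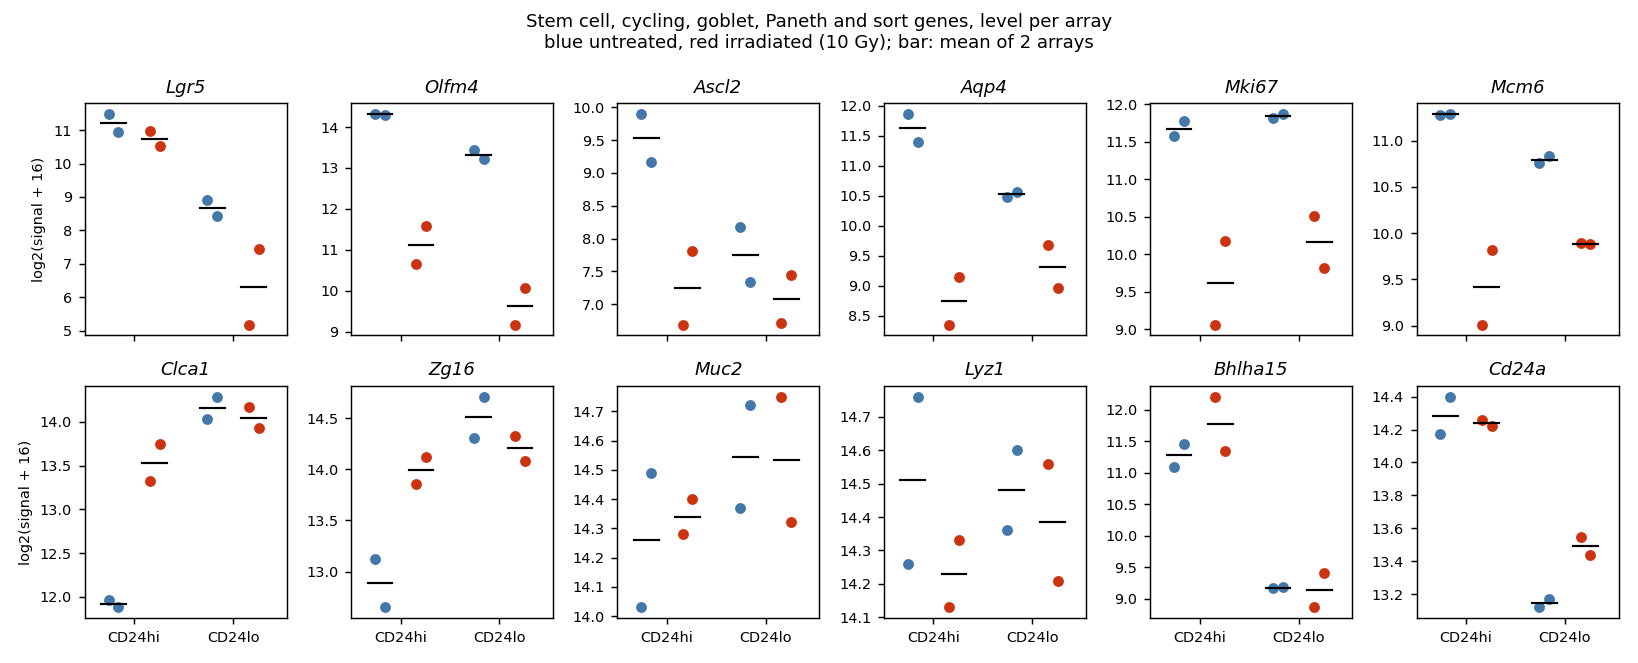
Level of 12 genes of the crypt base, cycling cells, goblet cells, Paneth cells and the sort in each array (y axis, log2(signal + 16), scaled per panel) for CD24hi and CD24lo cells (x axis); blue points are untreated, red points irradiated and bars the mean of 2 arrays. In CD24hi cells Olfm4 falls from 14.32 and 14.30 to 10.64 and 11.57, Lgr5 stays between 10.52 and 11.48, and Clca1 reaches 13.32 and 13.75 in irradiated CD24hi arrays, below the 13.93 to 14.29 of the CD24lo arrays.

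Several genes outside the lists also rose strongly. Ephx1, the microsomal epoxide hydrolase, read 9.85 and 8.31 in untreated and 12.18 and 12.35 in irradiated arrays and rose by 3.18 (SE 0.35; adjusted p = 4.91e-05). Ano3, an anoctamin membrane protein, rose by 3.41, Zfp365 by 3.13, Ddit4l, an inhibitor of mTOR signalling, by 3.08, Casp14, a caspase of skin differentiation, by 3.07, Abcb1b, a drug efflux pump, by 3.07, Wfdc18 by 2.94 and Ltf, the iron-binding protein lactoferrin, by 2.93. The glutathione transferase genes Gsta3 and Gsta4 rose by 2.55 and 2.19, the latter not without untreated replicate 2 (adjusted p = 0.0671), and with Sesn2 they were the 3 raised members of 22 oxidative stress genes. Ano3, Zfp365, Ddit4l, Casp14, Abcb1b, Wfdc18, Ltf and Gsta3 were below the array median in both untreated CD24hi arrays, where the size of a difference depends on the added 16. Ano3, Zfp365, Ddit4l, Casp14 and Abcb1b passed the filter on low values through irradiated or doxorubicin arrays alone, as did 20 of the 131 higher genes and 129 of all 11854, so their rises are given as a description.

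Among the largest falls outside the groups above were the urea transporter gene Slc14a1 (-3.35) and the gasdermin gene Gsdmc2, which read 7.14 and 7.55 in untreated and 4.07 and 4.08 in irradiated arrays (-3.27; adjusted p = 8.13e-05). Slc14a1 passed the filter on low values through the 2 untreated CD24hi arrays alone, so its fall is given as a description. Others were Nrm, a nuclear envelope protein (-3.17), the growth factor gene Fgf1 (-2.81), the fatty acid desaturase gene Fads1 (-2.71; SE 0.22; adjusted p = 5.23e-06), the centrosomal gene Cep128 (-2.73) and the carbonic anhydrase gene Car4 (-2.86). Car4 lost the call without irradiated replicate 1 (adjusted p = 0.322) or untreated replicate 1 (0.205). Other probe sets of Fads1 (-0.32), Car4 (-1.59) and Cep128 (-0.88 and 0.26) were not called. Scd2, another desaturase gene, was the one lowered member of 16 cholesterol and lipid synthesis genes (-1.69; adjusted p = 0.0269) and did not pass without irradiated replicate 1 (0.0791), irradiated replicate 2 (0.168) or untreated replicate 2 (0.367), and its other 2 probe sets (-0.97 and -0.70) were not called. Ehf, an epithelial transcription factor gene, fell by 0.95 (adjusted p = 0.00156), and one of its other 2 probe sets (-0.59) was not called.

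Pancreatic acinar enzyme genes had the highest list median, 3.06, in irradiated CD24hi cells. Of 9 markers on the array 8 passed the filter on low values, and 6 of those 8 passed it through irradiated or doxorubicin arrays alone, so their calls are given as a description. The gene 2210010C04Rik, which is outside the list, passed the filter in the same way. Cpb1, carboxypeptidase B, read 4.63 and 4.56 in untreated and 9.56 and 8.35 in irradiated arrays (difference 4.36; SE 0.64; adjusted p = 0.000622), the largest rise of all genes tested. Cel, the bile salt-activated lipase, read 4.55 and 4.81 against 9.02 and 7.29 (3.48), and Ctrb1, a chymotrypsinogen, 5.98 and 6.57 against 9.98 and 9.15 (3.29). Irradiated replicate 1 was the higher array for all of these. The elastase gene Cela2a (3.40), the trypsinogen gene Prss2 (2.82), the carboxypeptidase gene Cpa1 (2.71) and 2210010C04Rik (3.95) had the same pattern, Cela1 (1.24) and Cela3b (1.65) were not called, and 1 list member passed without irradiated replicate 1 and 3 without untreated replicate 2. The summed signal of the 9 markers was 4230 and 1836 in irradiated CD24hi arrays, 399 and 306 in untreated CD24hi, 468 and 433 in irradiated CD24lo, 3569 and 1019 in doxorubicin-treated CD24lo, 596 and 648 in doxorubicin-treated CD24hi and 462 in whole intestine. The source of these transcripts was not tested.

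The same dose was given to CD24lo cells, measured on 4 other arrays. There irradiation changed 477 genes (4.02%), 187 higher (1.58%) and 290 lower (2.45%). 65 genes were called higher in both fractions, which is 49.6% of the CD24hi and 34.8% of the CD24lo higher calls, and 159 were called lower in both, which is 40.3% and 54.8%. No gene was called in opposite directions, and 128 of the 131 higher and 384 of the 395 lower CD24hi genes had the same sign in CD24lo cells. The share with the same sign over all genes is not given here. Deviations of same-numbered untreated arrays correlated at 0.344 between the fractions, so the 2 sets of calls may not be independent. The p53 list had 12 higher and 0 lower members in CD24lo cells, S phase 11 lower and mitosis 27 lower, MHC class II 5 lower and the goblet list 3 higher. Cdkn1a rose by 1.43 in CD24lo cells, Phlda3 by 4.75, Olfm4 fell by 3.71, H2-Aa by 1.77, and Lgr5 fell by 2.35 (adjusted p = 0.0268). The CD24lo count was 112 without irradiated CD24lo replicate 1, 195 without replicate 2 and 147 without untreated CD24lo replicate 2.

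The test of the difference between the 2 fractions' responses called 1 gene of 11854 (0.00844%) at an adjusted p under 0.05, with 428 at an unadjusted p under 0.05. It was Clca1, which rose in CD24hi cells and read 14.03 and 14.29 in untreated and 14.17 and 13.93 in irradiated CD24lo cells, so that the responses differed by 1.72 (adjusted p = 0.0393). Untreated CD24lo cells already carried more Clca1 than irradiated CD24hi cells. Of the 8 arrays compared, leaving out any one other than irradiated CD24hi replicate 1 lost the call (adjusted p from 0.0804 to 0.49), and the adjusted p over the other settings ran from 0.00981 to 0.38. The Lgr5 responses of -0.47 and -2.35 (difference 1.88), the Cpb1 responses of 4.36 and -0.04 (difference 4.40; adjusted p = 0.52) and the Aqp4 responses of -2.88 and -1.20 (adjusted p = 0.69) did not pass this test.

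Doxorubicin was compared directly with irradiation in CD24hi cells, with doses and times not matched by the labels. This comparison shares its irradiated arrays with the one above. Irradiated cells differed from doxorubicin-treated cells in 540 genes (4.56%), with 100 higher (0.844%) and 440 lower (3.71%) after irradiation. None of the 27 p53 targets of arrest and feedback was called, and their median was 0.13. Ccng1 read 13.81 and 13.89 after irradiation and 13.84 and 13.79 after doxorubicin (difference 0.03; 95% interval -0.42 to 0.49), and Cdkn1a 13.34 and 13.68 against 12.62 and 12.36 (1.02; adjusted p = 0.0544; 95% interval 0.41 to 1.62).

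Proliferation genes differed between the 2 treatments. Of the mitosis list 32 of 36 were lower after irradiation than after doxorubicin, with a median of -1.94, and of the S phase list 23 of 36, with a median of -1.04. Mki67 read 9.06 and 10.17 after irradiation and 12.01 and 11.95 after doxorubicin, against 11.57 and 11.78 in untreated cells, and was lower by 2.36 (adjusted p = 0.000264) after irradiation. MHC class II genes were lower in 5 of 6 cases, with H2-Aa at 8.20 and 7.04 against 10.59 and 10.67 (-3.01; adjusted p = 6.66e-05). Beside this, the summed signal of 20 T cell markers was 1594 and 1966 after irradiation and 4303 and 3972 after doxorubicin, with a median difference of -1.05 over the 13 tested and 0 calls, and that of 12 B and plasma cell markers was 1408 and 971 against 3102 and 2666. Their part in the class II and Cxcl9 differences was not tested. Olfm4 was lower by 2.44 and read 13.47 and 13.60 after doxorubicin. Of 25 enterocyte genes 6 were lower after irradiation than after doxorubicin, with a median of -1.34. Lct read 8.41 and 9.17 against 10.63 and 10.86 (-1.95; adjusted p = 0.0267), and 8.03 and 7.82 in untreated CD24hi cells. Compared with untreated cells, irradiated cells had an enterocyte list median of 0.22, so this list was not lowered by irradiation. The chemokine gene Cxcl9 (-3.86) and Ceacam10 (-3.67) were lower, while Wfdc18 was higher by 3.47 and Rimklb by 2.91. Rimklb lay above the array median in 3 arrays, 2 of them irradiated CD24hi. It passed the filter on low values only with those, so its difference is given as a description. The count was 119 without irradiated replicate 1, 179 without doxorubicin replicate 1, 161 without doxorubicin replicate 2 and 1078 with these 4 arrays fitted alone.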

How the data were processed

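RNA from sorted mouse intestinal cells, 0.8 ng per sample, was hybridised to Affymetrix arrays of 45101 probe sets. The authors deposited linear signal intensity made with MAS5, per the submitters' processing notes; its version is not given in the sources used here. The deposited intensity values have a trimmed mean of 500 in every array. Gene symbols came from GEO's platform annotation: 34958 probe sets had 1 symbol, 932 several and 9211 none. Probe sets above the array median in at least 2 of 20 sorted arrays were kept (22531), and the one with the highest mean stood for each gene (11854). Bax was not analysed here.

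limma 3.58.1 (R 4.3.3) fitted 1 mean for each of 10 groups to log2(signal + 16), with 10 residual degrees of freedom and variance moderation by level; contrasts were two-sided. The intervals are 95% intervals. The genes named are a set of well-known markers, up to 5 called members of each of 40 gene lists (851 of 930 entries matched), the 15 largest called changes each way whose groups did not overlap, and the 8 largest in each other comparison. Pmaip1, Bbc3, Fas, Jchain, Cd79a, Cd79b, Ighm, Iglv1, Lyz2, Cd68, Irf1 and Polk were added after their values were seen. So were Smoc2, Ciita, Cpa1, Cela1, Cela3b, Sytl2, other p53 list genes, Cdca8 and Mcm7. Members and lists were chosen with earlier results of these data known. Matching by synonym led the enterocyte entry Sis to Pdgfb and the enteroendocrine entry Mln to Mrln, which are other genes. Both count among the 851 matched entries. Neither Pdgfb nor Mrln passed the filter on low values, so the counts of tested members do not hold them, and sucrase-isomaltase and motilin were not examined. Over 45 pairs of groups the deviations of same-numbered arrays correlated between -0.41 and 0.385. Between the CD24hi and CD24lo arrays of a condition the correlation was 0.344 in untreated and 0.385 in Lgr5-ablated cells. It was 0.068 in irradiated, -0.149 in NICD and -0.097 in doxorubicin-treated cells. The main fit used no pairing, so any deviation shared by untreated arrays of the same number was not modelled. This holds for the test between fractions and for the counts of calls shared by them. The fit was tested on simulated data. Alternatives were the added value, scaling, filter, probe set rule, moderation, a replicate block, the arrays fitted and, chosen after seeing the data, leaving out CD24hi NICD replicate 2.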

Additional observations from a re-analysis of the deposited data

Results flagged for a closer look

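Clca1 was the one gene whose irradiation response passed the test of a difference between the fractions: it was larger in CD24hi than in CD24lo cells by 1.72 on the log2(signal + 16) scale (adjusted p = 0.0393, limma with Benjamini-Hochberg adjustment).

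Ms4a1 moved in opposite directions in every array of the 2 fractions. It read 7.15 and 6.58 in untreated and 5.94 and 4.64 in irradiated CD24hi cells, and 6.20 and 6.37 in untreated and 7.35 and 6.85 in irradiated CD24lo cells. The responses differed by -2.39, which did not pass the test of the difference (adjusted p = 0.78).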

How the results depend on the processing

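For irradiation in CD24hi cells, the count of 526 genes stayed between 391 and 620 under the alternatives that kept all 4 arrays, the replicate block included (510), and ran from 163 to 530 with 1 array left out. For irradiation in CD24lo cells, the count of 477 was 221 with the 4 arrays fitted alone and 112 to 322 with 1 left out. For the difference between fractions, 2 genes were called with 64 added, 0 with no filter, the mean of probe sets, the replicate block or the 8 arrays fitted alone, and 0 to 2 with 1 array left out; without moderation by level the 1 gene called was Gsdmc2 in place of Clca1. Irradiation against doxorubicin gave 1078 genes with its 4 arrays alone and 119 to 510 with 1 left out. Leaving out 1 array gave 7 to 25 S phase, 18 to 31 mitosis, 1 to 7 acinar, 8 to 10 p53 and 5 MHC class II calls; the stricter filter left no acinar gene. Genes that were not called changed sign: Cd24a with the mean of probe sets (0.057) and Clu with quantile normalization (-0.011), and with 1 array left out Cd24a (-0.155 to 0.068), Clu (-0.638 to 0.884), Muc2 (-0.154 to 0.306), Chga (-1.048 to 0.097), Dclk1 (-1.274 to 0.079), Hes1 (-0.388 to 0.517), Ido1 (-0.564 to 0.189), Reg3b (-1.063 to 0.181) and Hbb-b2 (-1.418 to 0.370). No called named gene changed sign. The causes of these changes were not tested. MAS5 signals near the array median limit what dim genes can show.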
